A study of Mus musculus with 81 samples.

Results

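Replication-dependent histone genes are the 62 mouse genes, of 21887 protein-coding genes on the nuclear chromosomes, whose symbols begin with H2ac, H2bc, H3c or H4c or are H1f1 to H1f5. The rule used names only, and no measured value entered it. There were 5 genes for linker histone H1, 17 for H2A, 16 for H2B, 12 for H3 and 12 for H4. In mm10 they lie in 3 clusters: 10 genes over 50.3 kb of chromosome 3, 22 genes over 327.9 kb of chromosome 13 and 30 genes over 403.9 kb farther along chromosome 13. A locus was taken as the gene model with 1 kb on each side, so that a locus covers promoter, body and 3′ flank of a short gene, and 49 of the 62 loci overlapped a neighbouring histone locus.

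Core histones H2A, H2B, H3 and H4 form the octamer around which DNA is wrapped, and H1 binds the linker DNA between octamers. These clustered genes are transcribed mainly in S phase, when new DNA must be packaged, at a nuclear body that is organised by the cyclin E-Cdk2 substrate NPAT. Most of their mRNAs carry no poly(A) tail and instead end in a stem-loop bound by SLBP.

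Chromatin accessibility was measured by ATAC-seq in 81 mouse samples, in 27 groups of 3. The first system was wild-type 129/Ola embryonic stem (ES) cells, sampled before (0h), 9h into and 48h into induction with FGF2 and Activin A, which turns them into epiblast-like cells (EpiLC) over that time. Mouse embryonic fibroblasts (MEF; Black6-129X1/SvJ, passage 2 to 3) were heterozygous for 3 alleles: Col1a1::tetOP-OKSM, the doxycycline-inducible cassette of reprogramming factors, with R26-M2rtTA, the transactivator, and Oct4GFP, a reporter. They received doxycycline at 2 µg/mL and were sampled 6h, 12h and 36h later. In repli-ATAC-seq, DNA copied during a 10 min pulse of 20 µM EdU was captured at once (nascent chromatin) or at 2 h after label, once the cells had been kept in 10 µM thymidine (mature chromatin). The uncaptured DNA gave the bulk signal, in MEF for the nascent and the mature arm separately. Further MEF were sorted at 60h into 4 fractions, Q1 to Q4, by a dye that is diluted at each division (which of them was brightest is not given). In a last experiment MEF received 5 µg/mL aphidicolin, an inhibitor of replicative DNA polymerases, 4 h after induction and were cultured for 10 h more beside untreated MEF, all under the same doxycycline. All MEF groups therefore carried the induced factors, and no uninduced MEF were analysed here. The presence of peaks at marker genes differed little between the labelled cell types and does not identify them. In MEF bulk chromatin 12 of 12 fibroblast genes had a peak at 6h, 12h and 36h, against 9 to 10 in the ES course. All 10 naive ES cell genes had one in each bulk list of the ES course, EpiLC included, and 8 to 9 in MEF. Of epiblast-like cell genes 7 of 7 had one in every bulk list of both systems. Of endothelial genes 6 of 6 had one in every MEF bulk list, and 5 to 6 in the ES course.

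Several of the genes are near-identical copies, so that reads can be shared between them. A promoter window of 250 bases before the start and 50 bases after it was found in RefSeq (mm10) for 57 members, and in 11 of them it held a run of at least 50 bases that was also present in another promoter. The pairs were H3c14 and H3c15 (231 bases), H2ac18 and H2ac19 (219 bases), H4c11 and H4c12 (72 bases) and H4c17 and H4c18 (285 bases). H2bc23 and H2ac23 shared 233 and 200 bases with H2ac24. These lengths are for pairs of members only. H2bc23 and H2ac23 also shared runs of 50 bases with the promoter of H4bc24, a gene outside the naming rule. Of their 50-base stretches 100% and 86.9% were found in H4bc24 or H2ac24. The 250 bases before the start of the H3c15 and H3c14 copies are shown because the region that changed most with aphidicolin begins in the first of them. H3c15 is at chr3:96239128-96239377 on the minus strand and H3c14 at chr3:96246435-96246684 on the plus strand, each 5′ to 3′, with the shared run in capitals.
H3c15: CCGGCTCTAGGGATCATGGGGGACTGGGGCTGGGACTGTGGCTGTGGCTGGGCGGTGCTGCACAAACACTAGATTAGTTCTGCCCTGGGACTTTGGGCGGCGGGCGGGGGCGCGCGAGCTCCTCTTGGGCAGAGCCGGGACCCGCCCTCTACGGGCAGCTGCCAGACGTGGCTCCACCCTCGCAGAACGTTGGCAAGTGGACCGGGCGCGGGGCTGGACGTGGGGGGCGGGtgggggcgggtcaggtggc
H3c14: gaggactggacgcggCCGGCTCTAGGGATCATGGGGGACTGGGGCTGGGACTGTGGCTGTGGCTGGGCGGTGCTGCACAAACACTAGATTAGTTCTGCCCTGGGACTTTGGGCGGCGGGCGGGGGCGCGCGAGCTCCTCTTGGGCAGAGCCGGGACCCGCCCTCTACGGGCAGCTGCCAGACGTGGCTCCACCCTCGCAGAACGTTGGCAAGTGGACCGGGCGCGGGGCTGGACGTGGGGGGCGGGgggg
The treatment of reads that align to more than 1 place was not given in the sources used here. Values for these 11 genes are therefore uncertain as to which copy they come from.

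The strongest peaks of mature chromatin touched a larger share of histone loci than of all loci, except in MEF at 12h, and those of nascent chromatin a smaller share. For each peak list the 10000 peaks with the highest scores were taken, so that each list gave the same number of peaks. This cut is unlike in depth. The nascent lists cut held 15200 to 27693 peaks, the mature lists 14281 to 94946 and the bulk lists 137173 to 203188. It thus takes a large part of a nascent list and a small part of a bulk list. Each histone share is therefore read against all loci of the same list. In ES cells at 0h these peaks touched 16 of 62 histone loci on nascent DNA (25.8%, against 39.8% of all protein-coding loci), 40 on mature DNA (64.5% against 33.2%) and 22 in bulk (35.5% against 33.8%). At 9h the counts were 16 (25.8% against 39.3%), 41 (66.1% against 32.5%) and 34 (54.8% against 33.4%). In EpiLC at 48h they were 23 (37.1% against 43.0%), 46 (74.2% against 34.9%) and 37 (59.7% against 35.9%). The histone share was thus below that of all loci on nascent DNA and above it on mature DNA at each of the 3 times.

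The MEF course gave the same order at 36h and another at 12h. At 36h, 24 loci were touched on nascent DNA (38.7% against 41.5% of all loci), 48 on mature DNA (77.4% against 38.2%) and 29 in bulk (46.8% against 33.2%). At 12h only 3 loci were touched on nascent DNA (4.84% against 37.3%), 11 on mature DNA (17.7% against 32.5%) and 21 in bulk (33.9% against 32.9%), so that both captured fractions lay below all loci. At 6h the mature list gave 36 loci (58.1% against 30.5%) and the bulk list 25 (40.3% against 27.7%). The nascent list of that time held only 3222 peaks and could not be cut at 10000. The bulk lists of the mature arm gave 25 (40.3% against 27.5%), 16 (25.8% against 29.6%) and 26 (41.9% against 32%) at 6h, 12h and 36h, the value at 12h being below that of all loci. The 4 sorted fractions gave 26 to 33 (41.9% to 53.2%, against 30.8% to 31.8%). In the lists of single untreated and aphidicolin samples, described at the end, the histone share was far under that of all loci (8.06% to 16.1%). These too are of uncaptured MEF chromatin, so the share differed widely among lists of that kind. The list of 1 group pools its replicates, so these shares have no replicate error and no test. Neighbouring histone genes also share peaks: the 16 loci of the nascent list at 0h rested on 10 peaks, and the 40 of the mature list on 25.

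**Figure D1:**
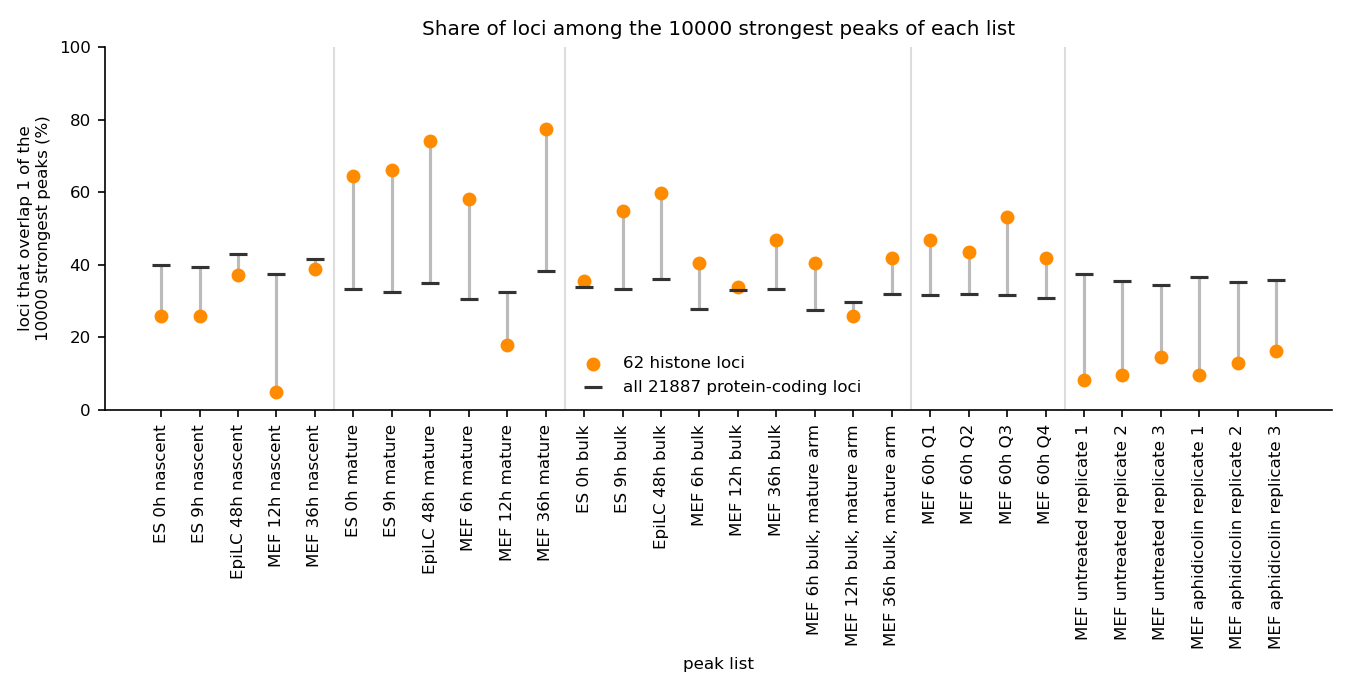
Share of the 62 histone loci (orange points) and of all 21887 protein-coding loci (black bars) that overlapped 1 of the 10000 highest-scoring peaks, in percent, for each peak list. The histone points lie below the bars in all 5 nascent lists plotted and in all 6 lists of single samples, above them in 5 of 6 mature lists, and highest in the MEF 36h mature list (77.4%); the list of MEF 6h nascent DNA is too short to be plotted.

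With all peaks counted, the histone share on nascent DNA was not below that of all loci: 46, 41 and 55 of 62 loci had a nascent peak at 0h, 9h and 48h of the ES course (74.2%, 66.1% and 88.7%), against 57.1%, 54.8% and 66.5% of all loci. In MEF the counts were 9, 34 and 41 at 6h, 12h and 36h (14.5%, 54.8% and 66.1%), against 12.9%, 54.6% and 52.5%. Each locus was next given the percentile of its best peak among all peaks of its list (100 is the highest score). On mature DNA 58, 59 and 58 histone loci had a peak in the ES course (against 73.0%, 75.9% and 76.4% of all loci) and 40, 54 and 56 in MEF (against 38.6%, 69.2% and 64.9%). In bulk the counts were 59, 59 and 59 in the ES course (against 80.1%, 80.0% and 81.0%), 57, 57 and 58 in the nascent arm of MEF (77.9%, 79.1% and 76.8%) and 57, 58 and 58 in its mature arm (78.7%, 78.2% and 76.9%). The median over the histone loci with a nascent peak was 40.0, 41.1 and 62.9 in the ES course, where all loci had 66.8, 66.2 and 74.1, and 49.8, 33.6 and 40.3 in MEF, where all loci had 54.3, 69.0 and 63.9. On mature DNA the histone medians were 89.1, 95 and 96.1 in the ES course (all loci 82.8, 87.0 and 85.0) and 75.6, 77.4 and 85.9 in MEF (all loci 61.1, 82.6 and 79.5). In bulk they were 92.2, 94.9 and 95.9 (all loci 91.7, 91.7 and 92.2) and, in the nascent arm of MEF, 90.8, 93.4 and 93.0 (all loci 90.7, 93.3 and 91.0).

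Among loci that were strong in bulk, nascent peaks were found at a smaller share of histone loci than of all loci at each of the 6 times, a difference that was not tested. Of the histone loci whose best bulk peak was at or above percentile 90, 38 of 42 had a nascent peak in ES cells at 0h (90.5%, against 94.0% of all such loci), 38 of 46 at 9h (82.6% against 90.6%) and 48 of 51 in EpiLC (94.1% against 96.2%). In MEF it was 9 of 31 at 6h (29.0% against 29.5%), 28 of 39 at 12h (71.8% against 91.5%) and 35 of 40 at 36h (87.5% against 93.0%). The gap to all loci was thus widest at 12h. It was small at ES 0h, in EpiLC and at MEF 6h, and neighbouring loci share peaks. Among loci with a bulk peak of any strength, the ES course went the other way. The histone shares there were 78.0%, 69.5% and 93.2%, against 71.2%, 68.5% and 82.0% of all loci. In MEF the histone share was below at 6h (15.8% against 16.6%) and 12h (59.6% against 69.0%) and above at 36h (70.7% against 68.3%).

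Histone-related genes outside the clusters had higher median ranks on nascent DNA than the clustered genes in the ES course and in MEF at 12h and 36h. Of 11 histone genes listed as replication-independent, which include H2ax and H3f3b, all had a nascent peak in the ES course and in MEF at 12h and 36h. Their median percentiles were 55.0 to 75.5. All loci had 63.9 to 74.1 there, and stood above these genes in ES cells at 0h and 9h and in MEF at 12h. All 23 genes of histone gene expression, a list of transcription and mRNA 3′ end factors such as Npat, Hinfp and Slbp, had one in those same 5 lists (78.9 to 87.7). Of 10 genes of histone supply, which include chaperones and an importer of new histones, 9 or 10 had one (78.2 to 91.6). The genes of histone gene expression also ranked above the clustered genes in bulk lists, with medians of 95.9 to 98.0 against 90.8 to 95.9. These lists were not tested against the histone genes.

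Among single genes, the divergently transcribed pair H2ac12 and H2bc12 and the gene H2bc14 had a peak in all 25 pooled lists, and they were the 3 members with a peak in all 6 nascent lists. H2ac12 and H2bc12 share their best peak, whose median percentile was 61.4 over nascent, 99.0 over mature and 98.3 over bulk lists. H2bc14 had 19 over nascent and 92.4 over bulk lists. In the 5 nascent lists other than that of MEF 6h, 29 members had a peak in every one.

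The linker genes differed among themselves. H1f2 had the highest nascent and bulk medians of the 5, with percentiles of 67.4 over its 5 nascent lists, 93.0 over 6 mature lists and 95.7 over 9 bulk lists. H1f3 had 95.7 over its 5 mature lists and 91.4 over bulk lists, H1f4 had 74.5 and 92.6, and H1f5 had 79.2 and 87.1. H1f1 had a nascent peak only in EpiLC (29.1), and its mature median was 49.8 and its bulk median 82.9. H1f1 had percentiles of 34.8, 12.8, 56.8 and 13.8 in the sorted fractions Q1 to Q4, where H1f2 had 95.5, 95.6, 94.0 and 89.3. No H1 locus had a peak in the nascent list of MEF 6h.

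**Figure D2:**
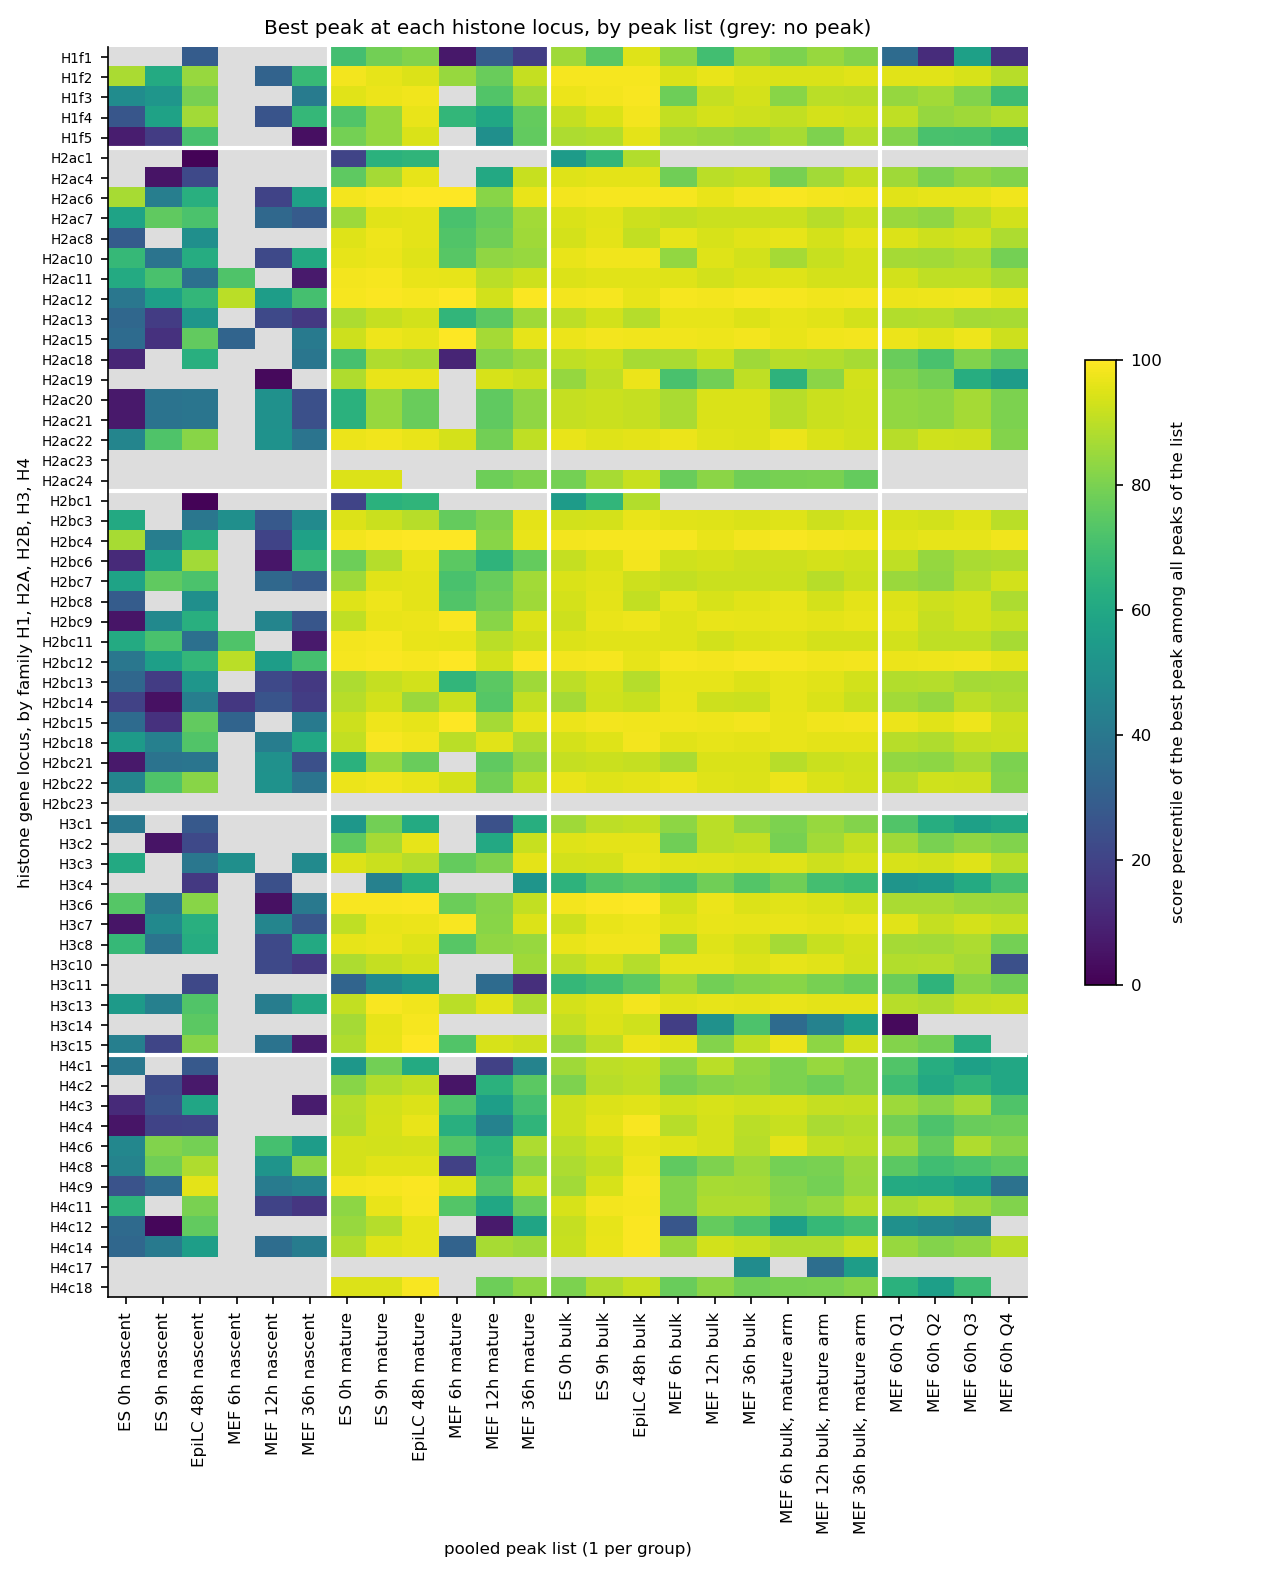
Score percentile of the best peak (colour) at each of the 62 histone loci (rows, by family) in each of the 25 pooled lists (columns, by kind of chromatin), with grey for no peak. The 6 nascent columns are darker or grey, the bulk columns are brighter, and H2bc23 and H2ac23 are grey throughout.

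H2bc23 and H2ac23 had no peak in any pooled list, and both are among the near-identical copies. H4c17, whose window shares 285 bases with that of H4c18, had a peak in 3 lists only, all of MEF bulk chromatin, at percentiles of 36.1 (12h, mature arm), 48.5 (36h) and 55.8 (36h, mature arm). It was the single member that gained a bulk peak between 6h and 36h, in both capture arms, and none was lost. Between 0h and 48h of the ES course no member gained or lost one.

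The divergent pair H2ac1 and H2bc1, known as the testis-type H2A and H2B genes, had a shared peak in 7 lists, all of the ES course, and in no MEF list. Its percentile in bulk chromatin was 55.0 at 0h, 66 at 9h and 88.6 in EpiLC. The 150 bases before each start are shown for this pair and for H2ac12 and H2bc12, whose peak was present everywhere. H2ac1 (chr13:23934287-23934436, plus strand) and H2bc1 (chr13:23934157-23934306, minus strand) overlap, as do H2ac12 (chr13:22035644-22035793, minus strand) and H2bc12 (chr13:22035671-22035820, plus strand). Capitals mark the CCAAT box, the TATA box (spelled TATAAA) and the octamer core, spelled TTTGCAT, on either strand.
H2ac1: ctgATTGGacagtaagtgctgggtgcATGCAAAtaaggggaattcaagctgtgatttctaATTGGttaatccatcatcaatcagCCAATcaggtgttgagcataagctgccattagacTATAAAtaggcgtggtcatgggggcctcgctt
H2bc1: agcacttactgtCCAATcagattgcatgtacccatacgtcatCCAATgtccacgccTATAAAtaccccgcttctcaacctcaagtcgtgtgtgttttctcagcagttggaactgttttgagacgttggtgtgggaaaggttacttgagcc
H2ac12: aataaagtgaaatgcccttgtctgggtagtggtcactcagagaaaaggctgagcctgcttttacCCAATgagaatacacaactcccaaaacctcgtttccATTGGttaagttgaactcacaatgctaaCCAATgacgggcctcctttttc
H2bc12: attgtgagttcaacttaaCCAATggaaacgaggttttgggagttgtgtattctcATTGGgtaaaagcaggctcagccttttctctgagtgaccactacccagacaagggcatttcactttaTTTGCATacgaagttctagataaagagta
Both pairs hold CCAAT between their starts. In these stretches TATAAA is found before H2ac1 and H2bc1 and not before H2ac12 or H2bc12, though the window of H2bc12 holds it farther upstream, within 250 bases of the start.

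For the 57 members with bulk peaks in both cell systems, the median over 3 ES lists was above the median over 6 MEF lists at 37 and below it at 20, with a median difference of 1.4 percentile points. Over all 17102 loci with such peaks 54.5% were above (64.9% of the histone loci) and the median difference was 0.4. The ES lists held 152932 to 154758 peaks and the MEF lists 137173 to 203188, so these percentiles cannot show a change in accessibility. The largest difference was at H3c14 (92.7 in ES, 47.4 in MEF), followed by H4c12 (96.3 and 68.8) and H4c11 (98.2 and 86.3). The lowest was at H3c11 (69.9 and 80.5). H3c14, H4c12 and H4c11 are all copies with a shared promoter run. The sorted MEF fractions held a peak at 56, 55, 55 and 52 histone loci in Q1 to Q4 (90.3%, 88.7%, 88.7% and 83.9%, against 71.3%, 70.6%, 71.5% and 66.8% of all loci).

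Promoter sequence differed by histone family. Exact matches on both strands were counted in the 250 bases before each start, over 58 member windows (H2bc6 has 2) and 21263 windows of all protein-coding genes. CCAAT, the box bound by NF-Y, was found in all 5 H1, 17 H2A and 15 H2B windows and in 80.0% of H3, but in 27.3% of H4 windows (35.4% of all promoters). TTTGCAT, the core of the octamer element bound by Oct1, was found in 46.7% of H2B and 35.3% of H2A windows, against 3.86% of all promoters. The GC box GGGCGG was found in 72.7% of H4 and in 0 of 15 H2B windows (42.6% of all). TATAAA was found in 48.3% of member windows and 11.6% of all.

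The H1 promoters are shown because 4 of these 5 genes fell with aphidicolin. Each line gives the 150 bases before the start: H1f1 at chr13:23763518-23763667 (plus), H1f2 at chr13:23738657-23738806 (plus), H1f3 at chr13:23554882-23555031 (plus), H1f4 at chr13:23622559-23622708 (minus) and H1f5 at chr13:21780626-21780775 (minus). Capitals mark the H1 box core (spelled AAACACA), the CCAAT box and the TATA box, spelled TATAAA, on either strand.
H1f1: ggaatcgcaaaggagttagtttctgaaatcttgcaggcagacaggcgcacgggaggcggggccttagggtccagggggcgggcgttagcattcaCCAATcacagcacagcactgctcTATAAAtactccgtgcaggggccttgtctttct
H1f2: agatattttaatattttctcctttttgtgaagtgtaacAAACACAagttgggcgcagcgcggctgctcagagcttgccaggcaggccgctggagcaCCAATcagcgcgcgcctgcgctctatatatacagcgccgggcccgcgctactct
H1f3: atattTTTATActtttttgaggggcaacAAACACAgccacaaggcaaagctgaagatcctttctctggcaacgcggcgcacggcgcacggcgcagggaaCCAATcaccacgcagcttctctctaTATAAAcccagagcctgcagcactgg
H1f4: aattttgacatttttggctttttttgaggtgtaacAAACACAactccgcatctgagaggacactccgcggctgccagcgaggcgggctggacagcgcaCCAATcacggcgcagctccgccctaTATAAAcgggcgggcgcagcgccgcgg
H1f5: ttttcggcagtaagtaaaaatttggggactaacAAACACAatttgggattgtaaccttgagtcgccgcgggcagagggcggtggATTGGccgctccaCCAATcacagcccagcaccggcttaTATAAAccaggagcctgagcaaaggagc
CCAAT stands in all 5. AAACACA, the core of the H1 box, stands in H1f2, H1f3, H1f4 and H1f5 and not in the window of H1f1, and outside the H1 genes it was found in 2 H2A and 2 H2B windows and in 5.46% of all promoters. Of the carriers outside the H1 genes, H2bc14 and H2ac4 had log2 fold changes with aphidicolin of 0.05 and -0.02 (edgeR adjusted p = 0.71 and 0.867). The other carriers, H2bc1 and H2ac1, had no counted region. This motif was added to the search after the data were seen, and a link between it and the change was not tested.

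With aphidicolin, reads fell at 35 of 63 regions at histone loci and rose at none. The authors counted reads over 139000 regions in 3 untreated and 3 aphidicolin libraries, whose numbers in the table are not tied to single samples and are used here only as names. A library held between 41183769 and 49440524 counts in the untreated group and between 55158844 and 78677381 in the aphidicolin group. Of these regions 63 overlapped 57 of the 62 histone loci, and 27 of the 63 were shared by 2 or more loci. H2bc23, H2ac23, H4c17, H2bc1 and H2ac1 had no region. In edgeR's quasi-likelihood test 35 of the 63 regions were lower and 0 higher at an adjusted p under 0.05, where 17.9% of all 138996 regions tested were lower and 18.0% higher, and 21.4% and 14.7% of those at protein-coding loci. At an unadjusted p under 0.05, 0 of the 63 were higher, and DESeq2 called 34 lower and 0 higher. The median log2 fold change was -0.26 at histone regions and 0.02 over all regions. The 3 values of each group did not overlap at 43 regions that were lower and 1 that was higher (22.9% and 23.7% of all regions). Scaling by library totals gave 19 lower and 3 higher (30.2% lower, against 7.99% of all regions) and moved the median of all regions from 0.02 to 0.18, and offsets that follow region strength gave 19 lower and 1 higher (30.2% lower, against 10.8%).

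Strong regions fell on the whole in this experiment, and histone regions were mostly strong: when all regions were cut into 10 equal strength classes by mean log2 CPM, 20 of the 63 were in the highest class and 20 in the next. In the highest class 10 of 20 histone regions were lower (50.0%), against 72.0% of all regions there, and the median changes were -0.24 and -0.32. In the next class 12 of 20 were lower (60.0% against 34.6%), with medians of -0.27 and -0.16. In the class after it 9 of 10 were lower, against 20.8% of all, with medians of -0.33 and -0.06. The differences between these shares were not tested.

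**Figure D3:**
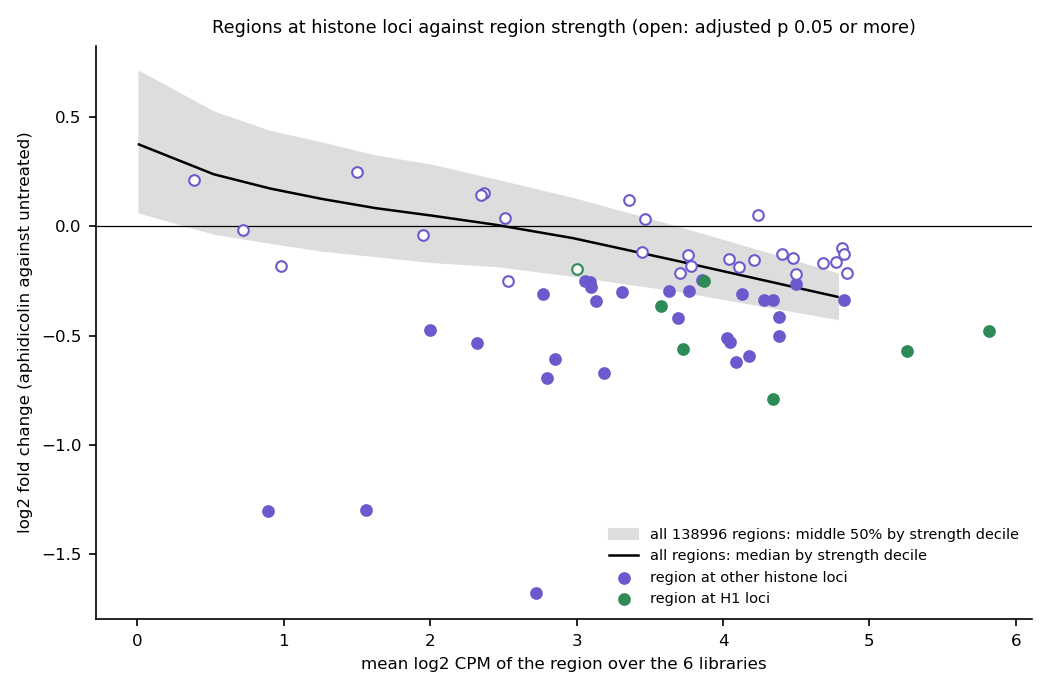
Log2 fold change of each region at a histone locus (points; filled where the adjusted p was under 0.05) against its mean log2 CPM, with the median (line) and middle 50% (grey) of all 138996 regions by strength class. The largest falls, at -1.68, -1.30 and -1.30, lie far below the grey band, and 6 of the 7 H1 regions (green) are filled.

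The 3 largest falls lay just past the 3′ ends of genes. The region at chr3:96239363-96239731 lies 48 bp past the 3′ end of H2ac19 and lies 236 bp upstream of the H3c15 start. Its log2 CPM was 3.24, 3.36 and 3.51 untreated and 1.86, 1.55 and 1.70 with aphidicolin. The groups lie far apart, and the log2 fold change was -1.68 ± 0.11 (SE; edgeR adjusted p = 6.18e-07). The region 112 bp past the 3′ end of H4c18 (chr13:21831463-21831680) had 2.06, 2.14 and 2.18 untreated and 0.99, 0.69 and 0.86 with aphidicolin, a change of -1.30 ± 0.13 (edgeR adjusted p = 2.76e-05). The region 358 bp past that of H2bc9 (chr13:23542406-23542565) had 1.27, 1.41 and 1.73 untreated and 0.11, 0.12 and 0.36 with aphidicolin, also a change of -1.30 (SE 0.17, edgeR adjusted p = 8.85e-05). In each of these 3 regions every aphidicolin library was below every untreated one. H2ac19, H3c15 and H4c18 are copies with shared promoter runs, whereas the promoter window of H2bc9 shares none of 50 bases. The windows do not reach the regions past H4c18 and H2bc9, and take in only the edge of the first region. Whether reads within these 3 regions are shared with other copies was therefore not examined.

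In all, 8 histone regions lay within 1 kb past a member's 3′ end and covered neither a start site nor a gene model, and 7 of them were lower (87.5%), with a median of -0.50. Over all genes, 29.6% of 1076 such regions were lower, with a median of -0.14. This grouping was chosen after the values were seen and was not tested. The other 3′ regions that fell were those past H2bc3 (-0.70), H4c8 (-0.30), H2bc7 (-0.30) and H1f3 (-0.25), and the one past H3c11 had a value of -0.25 with an edgeR adjusted p of 0.166. Of 40 regions that covered a member's start site 20 were lower, with a median of -0.23. The 53 regions at members with no shared promoter run found held 28 lower and 0 higher. Those members include the 5 without a promoter window, such as H4c14, for which sharing was not examined. Inside the spans of the clusters, 61 further regions away from histone loci held 14 lower and 4 higher, with a median of -0.10.

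Counts were next summed over each locus and fitted over 16815 protein-coding loci, on a scale that sets the typical gene locus near 0. On it 15 of 57 histone loci were lower (26.3%, close to the 24.4% of all loci). Only 1 of 57 was higher, where 22.5% of all loci were. The medians were -0.03 and 0.00. With the scaling factors of all regions instead, gene loci as a whole moved down by a median of 0.20, and 37 of 57 histone loci were lower (64.9%, against 51.6% of all loci) and 0 higher (against 7.69%). Leaving out untreated library 3 gave 13 lower and 4 higher and a histone median of 0.05. Relative to other gene loci the share of histone loci that were lower was therefore near the background. The share that were higher was under it, a difference that was not tested. By family, 80.0% of H1, 13.3% of H2A, 21.4% of H2B, 16.7% of H3 and 36.4% of H4 loci were lower, and no family was tested against the background.

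Linker histone genes gave the most uniform fall: 4 of 5 H1 loci were lower. H1f2 had a log2 CPM of 6.25, 6.32 and 6.29 untreated and 5.99, 6.02 and 5.99 with aphidicolin, a change of -0.29 ± 0.04 (SE; edgeR adjusted p = 0.000202). H1f3 had 5.48, 5.64 and 5.77 untreated and 5.17, 5.22 and 5.37 with aphidicolin (-0.37 ± 0.08, edgeR adjusted p = 0.00243). H1f4 had 5.59, 5.79 and 5.92 untreated and 5.32, 5.40 and 5.45 with aphidicolin (-0.38 ± 0.07, edgeR adjusted p = 0.00193). In these 3 genes no aphidicolin library reached an untreated one.

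H1f5 overlapped between groups, with 4.91, 5.15 and 5.30 untreated and 4.67, 4.95 and 4.90 with aphidicolin. Its change was -0.28 ± 0.10 (edgeR adjusted p = 0.0359), and the call was lost when any of 4 libraries was left out (untreated 2 or 3, aphidicolin 1 or 3; values of -0.18 to -0.31) with 5 kb flanks (-0.20) and within 1 kb of its start (-0.21). H1f1 had 3.27, 3.18 and 3.57 untreated and 3.28, 3.40 and 3.34 with aphidicolin, with a change of 0.00 ± 0.11 (edgeR adjusted p = 0.979). Over single regions 6 of 7 at H1 loci were lower, against 17.9% of all regions and 20.8% to 72.0% in the 3 highest strength classes, to which all 7 belong, with a median of -0.48 and the strongest fall over the H1f3 start (chr13:23554942-23555688, -0.79 ± 0.08, edgeR adjusted p = 3.13e-05).

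**Figure D4:**
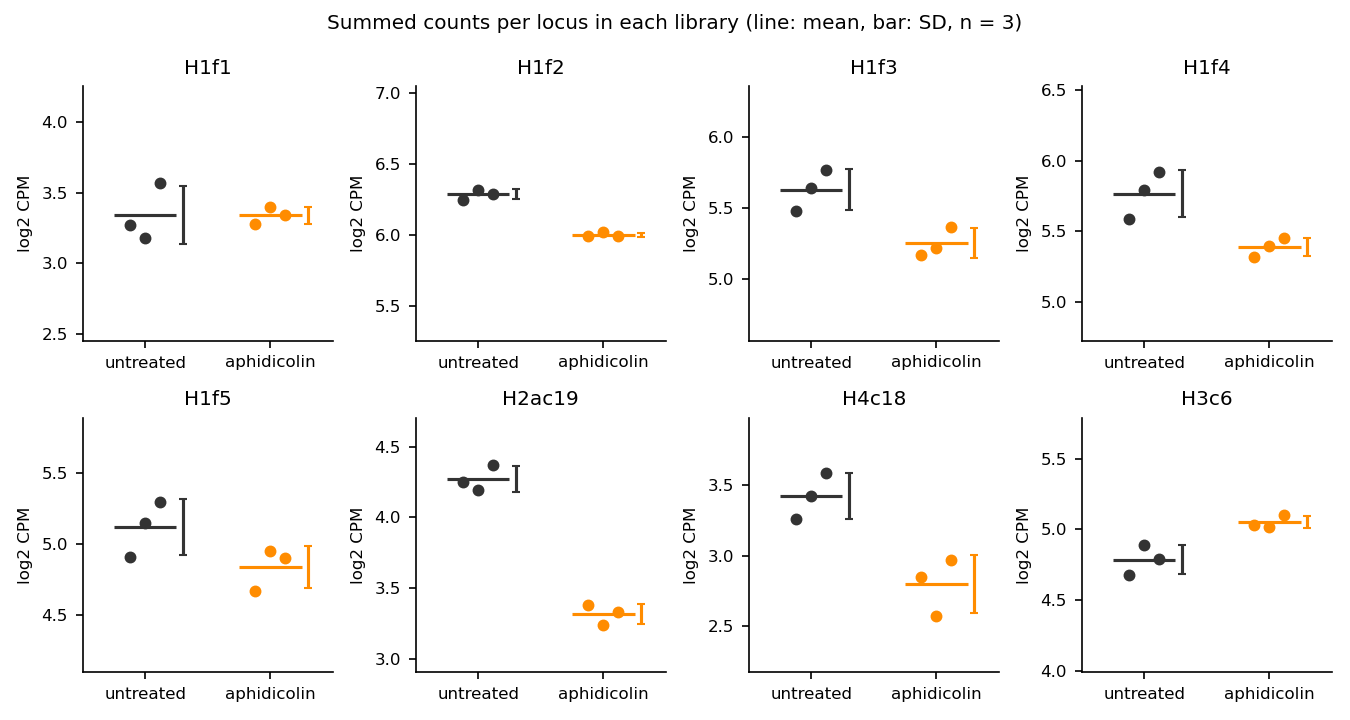
Log2 CPM of the summed counts in each of the 3 untreated (black) and 3 aphidicolin (orange) libraries at 8 histone loci, with the mean (line) and SD (bar) on axes of equal height. H1f2, H1f3, H1f4, H2ac19 and H4c18 are lower in every aphidicolin library, H3c6 is higher in every one, and H1f1 and H1f5 overlap.

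Of the H2A genes 2 of 15 loci were lower. H2ac19 had 4.25, 4.19 and 4.37 untreated and 3.38, 3.24 and 3.33 with aphidicolin, a change of -0.96 ± 0.08 (edgeR adjusted p = 4.29e-05), most of which comes from the region it shares with H3c15: without the 1 kb flanks the value was -0.34 and the adjusted p 0.05. H2ac11 was the other (-0.22 ± 0.06, edgeR adjusted p = 0.0149), and its call was lost without untreated library 2 (-0.19) or aphidicolin library 1 (-0.18). Without flanks its value was -0.07 (edgeR adjusted p = 0.531), and within 1 kb of its start 0.00 (edgeR adjusted p = 0.983). The divergent pair H2ac12 and H2bc12 had 4.95, 5.18 and 5.20 untreated and 5.08, 5.25 and 5.27 with aphidicolin, groups that overlap (0.09 ± 0.07, edgeR adjusted p = 0.341). H2ac10, the H2A locus of highest log2 CPM, gave -0.08 ± 0.05 (edgeR adjusted p = 0.195).

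Of the H2B genes 3 of 14 loci were lower: H2bc6 (-0.30 ± 0.07), H2bc3 (-0.30 ± 0.10) and H2bc18 (-0.29 ± 0.06). The gene model of H2bc6 is 37455 bp long and takes in the strong region at H1f4, so the sum at H2bc6 is not its own alone. That region (-0.57) covers the H1f4 start and 1 of the 2 listed H2bc6 starts. The region over the other H2bc6 start fell by 0.30, and the region 638 bp downstream of that other start by 0.67. The H2bc3 call was lost when untreated library 2 or 3 or aphidicolin library 1 or 2 was left out, and with each other locus width tried (-0.15 to -0.23). With 1 kb flanks H2bc18 and H3c13 take in the same regions, so the pair is 1 measurement. Without flanks H2bc18 gave -0.40 (edgeR adjusted p = 0.000678) and H3c13 gave -0.06 (edgeR adjusted p = 0.626). H2bc21, of the chromosome 3 cluster, gave -0.18 ± 0.08 (edgeR adjusted p = 0.0838).

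Of the H3 genes 2 of 12 loci were lower, H3c15 and H3c13 (the latter only with its flanks), and 1 was higher. H3c15 had 4.24, 4.51 and 4.75 untreated and 3.62, 3.62 and 3.60 with aphidicolin (-0.90 ± 0.11, edgeR adjusted p = 0.000153). Its copy H3c14 held few reads, with 0.35, 0.75 and 1.63 untreated and 0.91, 1.26 and 1.24 with aphidicolin (0.17 ± 0.27, edgeR adjusted p = 0.627). H3c6 had 4.68, 4.89 and 4.79 untreated and 5.03, 5.02 and 5.10 with aphidicolin, a change of 0.26 ± 0.06 (edgeR adjusted p = 0.00575). With the scaling factors of all regions H3c6 gave 0.07 and with 5 kb flanks 0.14, and neither was called. H3c1 and H3c7, the H3 loci of highest log2 CPM, gave 0.03 ± 0.06 and -0.01 ± 0.07 (edgeR adjusted p = 0.73 or more); with the scaling factors of all regions both were lower, at -0.16 and -0.20.

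Of the H4 genes 4 of 11 loci were lower. H4c18 had 3.26, 3.42 and 3.58 untreated and 2.85, 2.57 and 2.97 with aphidicolin (-0.62 ± 0.12, edgeR adjusted p = 0.00212), and its value without flanks was -0.29 with an adjusted p of 0.143, and with 5 kb flanks -0.26 with 0.0593. H4c9 had 4.54, 4.73 and 4.58 untreated and 4.12, 4.17 and 4.29 with aphidicolin (-0.43 ± 0.07, edgeR adjusted p = 0.000974), and with 5 kb flanks its value was -0.09 with an adjusted p of 0.228. H4c4 had 4.48, 4.57 and 4.57 untreated and 4.15, 4.22 and 4.24 with aphidicolin (-0.33 ± 0.06, edgeR adjusted p = 0.00159). H4c14 gave -0.23 ± 0.06 (edgeR adjusted p = 0.00949) and lost its call without untreated library 2 or aphidicolin library 2, at adjusted p = 0.0511 and 0.0514. H4c1 shares its regions with H3c1 and gave the same value.

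**Figure D5:**
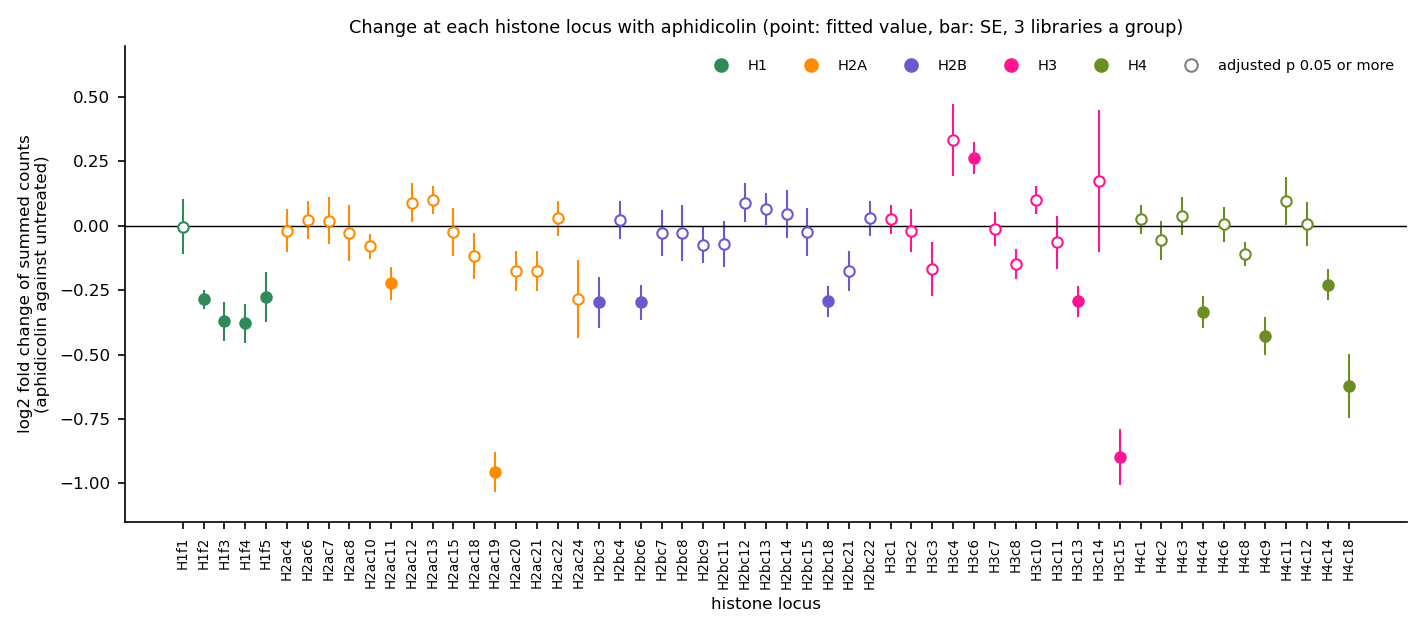
Log2 fold change of summed counts (points, with SE) at the 57 histone loci with counts, by family; filled points passed an adjusted p of 0.05. H2ac19 and H3c15, which share a region, have the lowest values, 4 of 5 H1 loci are filled below 0, and H3c6 is the one filled point above 0 (with the scaling factors of all regions it was not called).

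By cluster, 5 of 10 loci on chromosome 3 were lower, with a median of -0.20, against 4 of 19 (median 0.01) and 6 of 28 (median -0.03) in the first and second clusters on chromosome 13. Per region, 10 of 12 on chromosome 3 were lower (median -0.46), against 8 of 17 and 17 of 34 (medians -0.25 and -0.23). Over all features 24.4% of loci and 17.9% of regions were lower, and the clusters were not tested against each other.

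The genes that act with the clusters were called in part in the same fit. Of 23 genes of histone gene expression 12 were lower and 2 higher (median -0.15). The 2 higher were Eri1 (0.19 ± 0.07, edgeR adjusted p = 0.0371) and Pou2f1 (0.13 ± 0.04, edgeR adjusted p = 0.0144). Hinfp, the activator of H4 genes, changed by -0.42 ± 0.06 (edgeR adjusted p = 0.000259), Slbp, which binds the stem-loop, by -0.25 ± 0.04 (edgeR adjusted p = 0.000315), and Casp8ap2, a component of the histone locus body, by -0.24 ± 0.04 (edgeR adjusted p = 0.001). Sympk and Upf1, which act in mRNA 3′ end processing and decay, and E2f1, an S phase activator, were lower by 0.25, 0.18 and 0.21 on the log2 scale. Of 11 replication-independent histone genes 5 were lower and 0 higher (median -0.12): H3f3b (-0.34), H2az2 (-0.30), H2az1 (-0.30), H2ax (-0.26) and H1f0 (-0.23). Of 10 genes of histone supply 4 were lower and 0 higher (median -0.12): Asf1b (-0.31), Rbbp4 (-0.26), Hat1 (-0.25) and Rbbp7 (-0.23). The background of 24.4% lower over all loci applies to each list. Strong regions fell on the whole, and this background was not matched to the strength of the listed loci. Among cell type markers in the same fit, 2 fibroblast genes of 12 were lower and 4 higher, and of naive ES cell genes 5 of 7 were lower and 2 higher. Of epiblast-like cell genes 0 of 7 were lower and 1 higher, of macrophage and blood genes 2 of 6 and 2, of endothelial genes 0 of 6 and 3, and of muscle and neural genes 1 of 6 and 2. Their part in the histone result was not tested.

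Nearly every histone locus with a count region had a peak in every library, so the number of loci with a peak leaves no room for a difference. The per-sample lists held a peak at 56, 57 and 57 of 62 loci untreated (against 76.1%, 75.9% and 75.4% of all loci) and at 57, 57 and 57 with aphidicolin (against 77.5%, 78.1% and 77.9%), a mean difference of 0.333 loci (two-sided exact permutation p = 1.0; 3 against 3 cannot go below 0.1). The median percentile of the histone loci in these lists was 81.4, 83.7 and 85.8 untreated and 87.0, 89.6 and 88.0 with aphidicolin, where all loci had 90.2 to 92.1 and 92.6 to 92.9. The untreated lists held 116939 to 129546 peaks and the aphidicolin lists 148292 to 163947, so these percentiles cannot show a change between the groups. The 10000 highest-scoring peaks touched 5, 6 and 9 histone loci untreated (8.06% to 14.5%, against 34.4% to 37.5% of all loci) and 6, 8 and 10 with aphidicolin (9.68% to 16.1%, against 35.3% to 36.5%). In these 6 lists the histone share was thus far under that of all loci in both groups.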

How the data were processed

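Peak lists (25 pooled, 1 per group, and 6 per sample) and a table of raw read counts per region were taken as deposited. The submitters' processing notes list mm10 and these tools: bedtools 2.26.0, MACS2 2.2.0, Bowtie2 2.2.5, cutadapt 2.2.0, SAMtools 1.4.1 and bcl2fastq 2.19.1. The score of each peak is the authors' deposited value and was used only to rank peaks within a list. The read counts are the authors' deposited whole numbers, with no normalization. The handling of reads with several alignments, and any shift for the transposase, was not given in the sources used here.

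A peak or region belonged to a locus when they overlapped by at least 1 bp. Gene positions are those of RefSeq (GRCm38.p6, the coordinates of mm10); its promoter table gave strand and sequence for 57 members. The test was edgeR 4.0.16 in its quasi-likelihood form (TMM scaling, filterByExpr defaults, Benjamini-Hochberg over all regions or loci, two-sided) in R 4.3.3, with DESeq2 1.42.0 as an alternative, and log2 CPM used a prior count of 2. The code was tested on simulated data. Python 3.11.15 was used for the lists. No 2 libraries of a group were alike within sampling noise (lowest chi-square over its degrees of freedom 1.88). The labels do not say whether replicates were separate cultures, so a p-value reflects the spread among these libraries alone, and that spread may be technical. For MEF, which bulk list belongs to the nascent arm was read from list names and by exclusion.

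The members and lists were chosen with earlier results of these data known. The text names the 10 called loci of largest change, the 2 loci of highest log2 CPM per family, the extreme regions whose groups do not overlap, the members in every nascent list or in no list, those that gain or lose a bulk peak, and up to 6 genes per pathway list by the smallest p. Other genes were named after their values were seen. Alternatives were other scalings, filters, locus widths, region sets and replicates left out.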

Additional observations from a re-analysis of the deposited data

How the results depend on the processing

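Without 1 library at a time, regions at histone loci gave 24 to 43 lower and 0 higher, and loci gave 11 to 22 lower and 1 to 4 higher, the 4 without untreated library 3. The difference in the number of loci with a peak ranged from 0 to 0.5 (exact permutation p of 0.8 to 1.0), and with peaks at or above the median score it was 1.667 (exact permutation p = 0.3). Scaling by library totals gave 19 regions lower and 3 higher, offsets that follow strength gave 19 and 1, and the regions with a peak in all 6 lists (56 of the 63) gave 22 lower and 0 higher. For loci, 2 were higher with the gene model without flanks, with 5 kb flanks, with the start site with 1 kb each side and with the replicate block, and the scaling factors of all regions gave 37 lower and 0 higher, because these factors place the median of all loci at -0.20 (51.6% of all loci were then lower and 7.69% higher). H3c1 and H4c1 changed sign under those factors, from 0.03 to -0.16. The replicate block gave 43 regions lower and 0 higher and 21 loci lower and 2 higher. The labels do not say whether same-numbered libraries are paired, and their correlations (0.263, 0.012 and 0.154) cannot decide it. Untreated libraries 1 and 3 correlated best with the aphidicolin library of their own number. Untreated library 2 did not (0.018 with aphidicolin library 3). No paired value is therefore given beside a result. Over the pooled lists, the median number of histone loci with a peak was 41 for nascent, 57 for mature, 58 for bulk and 55 for sorted lists. It was 13.5 for nascent lists with peaks at or above the median score of their list, and 16 for nascent, 25 for bulk and 28 for sorted lists with the 10000 highest-scoring peaks. For the named loci and regions past the threshold, 283 of the recomputed values stayed past it in the same direction and 31, at 9 of them, did not. The start-site windows, the scaling factors of all regions, the members with no shared run found and the top 10000 peaks were chosen after seeing the data. Pooled lists give no replicate error, and their depth is unknown.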
